A study of Mus musculus with 2 samples.

Results

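Transforming growth factor β (TGF-β) is a secreted cytokine that is kept inactive by its own propeptide until it is released. Active TGF-β brings the serine/threonine kinase receptors TGFBR2 and TGFBR1 together, TGFBR1 phosphorylates SMAD2 and SMAD3, and these bind SMAD4 and enter the nucleus, where they act on genes together with partner factors such as AP-1, RUNX and T cell factors. SMAD7 blocks the receptors and SKI represses SMAD-bound genes, so both act as brakes. In CD4 T cells the pathway restrains proliferation and the T-helper 1 programme and takes part in making regulatory and T-helper 17 cells. The 8 genes described here are Tgfb1 (the ligand), Tgfbr1 and Tgfbr2 (the receptor chains), Smad2 and Smad3 (the receptor-activated Smads), Smad4 (the common partner), Smad7 (the inhibitory Smad) and Ski (the co-repressor).

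The assay named in the labels is ATAC-seq, which maps accessible DNA by where a transposase can insert adapters. The cells were primary T-helper 1 cells of the mouse strain C57BL/6NJ, which are CD4 T cells polarised towards interferon-γ production. There was 1 group with 2 biological replicates, so no condition, genotype, dose or time could be compared, and the labels name no allele or agent. Sex was not collected and age is unknown. Both replicates carry the same donor identifier with separate biosamples, and whether the cells came from separate animals is not stated. The spread between the replicates may therefore be technical. The region names of the deposited lists also carry the words ASTARR, insert and masked and a time in hours, whose meaning is not stated, so the assay is given as the labels have it.

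The members were all open regions that overlapped the annotated body of 1 of the 8 genes or the 20 kb on either side. A region was shared when regions of both replicates overlapped by at least 1 bp, and overlapping regions were joined. The 8 genes held 110 of the 98786 regions of replicate 1 on chromosomes 1 to 19, X and Y, and 101 of the 91403 regions of replicate 2. Joined, they gave 97 shared regions of 84380 in all. No measured value entered the rule for the members, but the genes were chosen with earlier results of these data known. Of 8 T-helper 1 marker genes, among them Cd4, Tbx21 and Ifng, 8 had a shared region at a promoter. So had 1 of 4 B cell markers (Pax5), 1 of 4 myeloid markers (Cd14), 0 of 4 hepatocyte markers and 3 of 4 neuronal and glial markers (Syn1, Gfap and Rbfox3). Among all 21938 protein-coding genes the share was 65.9%. Open promoters thus also lay at genes of cell types other than T cells, and an open promoter in these lists does not by itself mark a gene's cell type or its expression.

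The sequences at the centre of the regions that recur below are shown first. Each of the next 6 is a run of 121 bases around the replicate 1 summit, the position of highest signal, read from the mm10 (GRCm38.p6) genome. Some lie at the regions of highest signal outside promoters of Tgfbr2, Smad3, Ski and Tgfb1. Others were chosen because they hold letters known from Smad binding. Capitals mark AP-1 (TGANTCA), the short Smad element (CAGAC, or GTCTG on the other strand) or a loose T-box pattern (AGGTGNNA). N stands for any letter. Names give the distance from the gene's main start.
Tgfbr2 intron, 22.2 kb (AP-1), chr9:116153060-116153180, plus strand: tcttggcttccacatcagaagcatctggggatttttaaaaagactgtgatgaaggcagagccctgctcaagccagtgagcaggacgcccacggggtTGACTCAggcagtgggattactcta
Tgfbr2 downstream, 93.4 kb (3 short Smad elements), chr9:116081907-116082027, plus strand: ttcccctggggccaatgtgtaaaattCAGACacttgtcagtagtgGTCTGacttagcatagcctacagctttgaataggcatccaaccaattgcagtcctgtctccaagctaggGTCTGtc
Smad3 intron, 51.5 kb (AP-1), chr9:63706481-63706601, plus strand: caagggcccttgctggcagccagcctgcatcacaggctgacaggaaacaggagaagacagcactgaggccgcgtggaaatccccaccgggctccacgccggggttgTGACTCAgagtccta
Tgfbr1 intron, 54.2 kb (AP-1 overlapping a short Smad element, and 1 more short Smad element), chr4:47407315-47407435, plus strand: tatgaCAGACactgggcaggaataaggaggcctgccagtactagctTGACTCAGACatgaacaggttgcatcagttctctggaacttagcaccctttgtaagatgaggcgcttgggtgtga
Ski intron, 14.5 kb (T-box), chr4:155208002-155208122, plus strand: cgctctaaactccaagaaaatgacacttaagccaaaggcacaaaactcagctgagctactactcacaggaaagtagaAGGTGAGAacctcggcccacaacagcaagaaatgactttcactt
Tgfb1 downstream, 18.99 kb (AP-1), chr7:25705930-25706050, plus strand: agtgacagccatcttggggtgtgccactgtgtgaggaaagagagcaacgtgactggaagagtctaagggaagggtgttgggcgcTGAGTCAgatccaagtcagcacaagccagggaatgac

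The promoters of the ligand and of a receptor are shown because both were open but they differ in their GC boxes. These are the 250 bases before the start in RefSeq (GRCm38.p6), 5′ to 3′ on the strand of the gene, with capitals on the GC box bound by SP and KLF factors (GGGCGG, read as CCGCCC on the other strand), the ETS element (CAGGAAG) and the short Smad element.
Tgfb1 promoter (5 GC boxes and 1 ETS element), chr7:25686752-25687001, plus strand: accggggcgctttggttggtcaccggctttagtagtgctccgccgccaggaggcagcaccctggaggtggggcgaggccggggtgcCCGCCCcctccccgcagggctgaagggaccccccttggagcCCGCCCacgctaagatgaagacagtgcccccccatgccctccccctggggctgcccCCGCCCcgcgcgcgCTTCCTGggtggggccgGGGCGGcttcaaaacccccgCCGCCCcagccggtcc
Tgfbr2 promoter (1 short Smad element, no GC box), chr9:116175364-116175613, minus strand: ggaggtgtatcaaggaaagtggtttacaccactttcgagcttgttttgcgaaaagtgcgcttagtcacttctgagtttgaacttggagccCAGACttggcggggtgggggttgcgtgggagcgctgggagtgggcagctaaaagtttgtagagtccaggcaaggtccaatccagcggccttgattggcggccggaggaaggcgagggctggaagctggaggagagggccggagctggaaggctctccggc
The RefSeq promoter table matched 5 of the 8 genes by symbol, Tgfb1, Tgfbr1, Tgfbr2, Smad3 and Ski. The GC box was found in a promoter of 4 of these 5 genes (all but Tgfbr2), and in 32.9% of the 27025 promoters in the table. The first count is per gene and the second per promoter. Another Tgfbr1 promoter, before the start at 33.0 kb, held no GC box. A match is a description of letters and not of a bound factor.

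All 8 genes had an open promoter, meaning a shared region within 1 kb of an annotated start, as did 65.9% of the 21938 protein-coding genes (14452). The signal given below is the deposited enrichment value of a region. What it is relative to is not stated, so it is ranked only within a replicate. In replicate 1 the strongest promoter region of each gene ran, from high to low, Smad2, Smad4, Tgfbr1, Ski, Tgfbr2, Tgfb1, Smad3 and Smad7. In replicate 2 the order was the same except that Tgfbr1 stood above Smad4 and Tgfbr2 above Ski, so neither of those neighbouring pairs differed beyond the replicates. Genes of both the activating and the inhibitory steps were open, with Smad2 highest and Smad7 lowest by signal in each replicate. For Tgfb1 the ranked region lay 2.4 kb into the gene. The region at its main start had 3.48 in replicate 1 and 3.28 in replicate 2, below the value ranked for Smad7. For Ski the ranked region lay before the main start. The region that covers the Ski main start had 2.24 in replicate 1 and 2.07 in replicate 2, lower still. By the deposited −log10 q of the ranked regions Smad2 was again highest in both replicates (698 and 671), but the rest of the order changed. Ski (577) stood next in replicate 1 and Tgfbr1 (423) in replicate 2, Tgfb1 (351 and 273) stood above Smad4 (332 and 220), and the lowest was Smad3 in replicate 1 (155, against 180 for Smad7) and Smad7 in replicate 2 (136, against 147 for Smad3). Promoters of these genes were rich in G and C: in 501 bp around the main start the GC content ran from 64.7% at Tgfbr2 to 82.0% at Ski, against a median of 62.3% over all open promoters of coding genes. The part of base composition in the openness of these promoters was not tested.

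**Figure D1:**
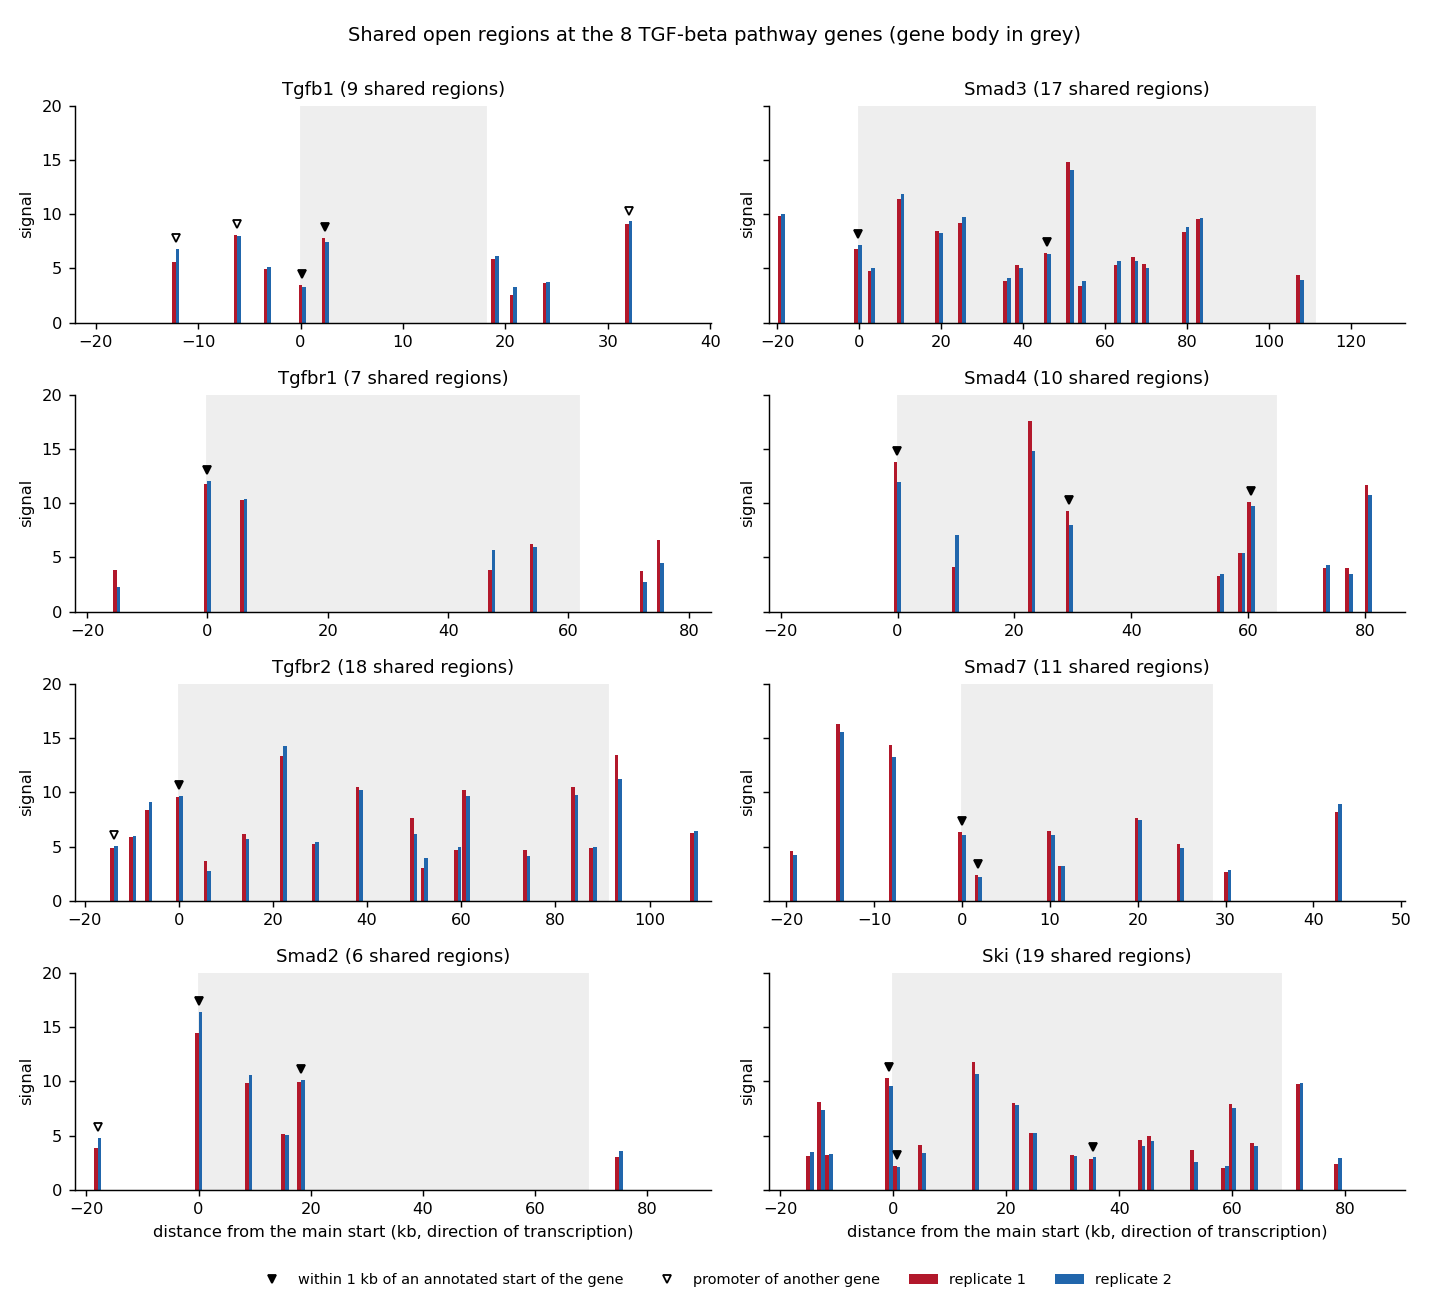
Signal of the 97 shared regions at each gene (vertical axis, deposited enrichment value) against the distance of the region's replicate 1 summit from the main start in kb, along the direction of transcription (horizontal axis). Red bars are replicate 1 and blue bars replicate 2; grey marks the gene body, filled triangles regions within 1 kb of a start of the gene and open triangles promoters of another gene. The longest stretch without a shared region is 9.7 kb at Ski, 15.4 kb at Tgfbr2 and 24.0 kb at Smad3, against 40.1 kb at Tgfbr1 and 55.8 kb at Smad2.

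The ligand gene Tgfb1 (ENSMUSG00000002603.15, chr7:25687002-25705077, plus strand) had 9 shared regions in its window of 58.1 kb. Its main start lay inside a region of low signal, 3.48 in replicate 1 and 3.28 in replicate 2. A second region 2.4 kb into the gene, at the starts of other annotated transcripts, was stronger, with 7.84 in replicate 1 and 7.43 in replicate 2. The signal at the start of the full-length transcript was thus below that of the region next to it in both replicates. No shared region lay in an intron of Tgfb1 outside promoters. Of the other 7 regions, 3 were promoters of neighbouring genes: Tmem91 at -12.2 kb, B9d2 at -6.2 kb (8.12 and 8.02 in replicates 1 and 2) and Ccdc97 at 32.0 kb (9.08 and 9.33). By signal the strongest region outside any promoter lay 18.99 kb from the start, just beyond the gene's end, with 5.83 in replicate 1 and 6.17 in replicate 2. The AP-1 element printed for it lies near its summit. The next were at -3.3 kb inside B9d2 (4.90 in replicate 1, 5.13 in replicate 2) and at 24.0 kb inside Ccdc97 (3.62 and 3.77). By −log10 q the region at -3.3 kb, with 187 in replicate 1 and 173 in replicate 2, stood above that at 18.99 kb (102 and 107).

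The type I receptor gene Tgfbr1 (ENSMUSG00000007613.15, chr4:47353222-47414931, plus strand), whose kinase phosphorylates SMAD2 and SMAD3, had 7 shared regions. Its promoter region was 2503 bp wide, the widest of the 97, and had a signal of 11.8 in replicate 1 and 12.1 in replicate 2. An intronic region 6.0 kb into the gene followed, with 10.3 in each replicate. After it, 40.1 kb had no shared region, a stretch that holds the start of an alternative coding transcript at 33.0 kb. The next regions, at 47.2 kb (3.88 in replicate 1, 5.68 in replicate 2) and 54.2 kb (6.23 and 5.99), both held AP-1 and a short Smad element near their replicate 1 summit. At 47.2 kb the replicate 2 summit lay 436 bp away. At 54.2 kb the AP-1 and short Smad letters overlap, as the printed sequence shows. Downstream, a region at 75.3 kb had 6.57 in replicate 1 and 4.45 in replicate 2. The region at -15.1 kb had 3.88 in replicate 1 and 2.30 in replicate 2. It was the only one at Tgfbr1 whose values lay more than 1.5-fold apart.

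The type II receptor gene Tgfbr2 (ENSMUSG00000032440.13, chr9:116084293-116175360, minus strand), whose product binds the ligand, had 18 shared regions, 11 of them in its introns. Its promoter region had a signal of 9.59 in replicate 1 and 9.65 in replicate 2. An intronic region at 22.2 kb was stronger, with 13.4 in replicate 1 and 14.3 in replicate 2. A region beyond the gene's 3′ end at 93.4 kb had 13.4 in replicate 1 and 11.2 in replicate 2. Both exceeded the promoter in each replicate. By the deposited −log10 q the promoter led with 277 in replicate 1 and 243 in replicate 2, against 192 and 194 for the region at 22.2 kb. Further intronic regions at 38.3, 61.0 and 84.1 kb had signals of 10.5, 10.3 and 10.5 in replicate 1 and of 10.2, 9.69 and 9.79 in replicate 2. Only 1 of the 18 was the promoter of a neighbour, Gm4668 at -13.7 kb. The longest stretch without a shared region was 15.4 kb.

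The receptor-activated Smad genes differed from each other. Smad2 (ENSMUSG00000024563.16, chr18:76241580-76310963, plus strand) had 6 shared regions, the fewest of the 8 genes, and the strongest promoter, with a signal of 14.4 in replicate 1 and 16.4 in replicate 2. Among the open promoters of coding genes this was percentile 77.7 in replicate 1 and 94.3 in replicate 2. The −log10 q of that region was 698 in replicate 1 and 671 in replicate 2, at percentiles 98.2 and 99.4. A second region within 1 kb of a start lay 18.3 kb into the gene (9.93 and 10.1 in replicates 1 and 2), and an intronic region at 8.9 kb had 9.89 and 10.6. Weaker regions lay in an intron at 15.4 kb (5.19 and 5.03) and downstream at 74.98 kb (3.05 and 3.53). Beyond 18.7 kb, 55.8 kb were without a shared region, the longest such stretch of the 8 genes.

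Smad3 (ENSMUSG00000032402.12, chr9:63646767-63757994, minus strand) had more regions and a weaker promoter than Smad2. It had 17 shared regions, 13 of them intronic, and a promoter with a signal of 6.76 in replicate 1 and 7.16 in replicate 2. That is percentile 16.9 in replicate 1 and 20.2 in replicate 2 among the open promoters of coding genes, and by −log10 q percentile 37.7 and 41.9. The intronic region at 51.5 kb had 14.8 in replicate 1 and 14.1 in replicate 2, which was 2.19 and 1.96 times the promoter. It also led the gene by −log10 q, with 464 in replicate 1 and 394 in replicate 2. The AP-1 element printed for this region lies at the end of the window. Another intronic region at 10.1 kb had 11.4 in replicate 1 and 11.8 in replicate 2, and a region upstream at -18.9 kb had 9.84 and 9.98. Of the 5 distinct annotated starts of Smad3, 2 had a shared region within 1 kb, the main one and one at 46.0 kb (6.46 and 6.30). The longest stretch without a shared region, 24.0 kb, lay near the gene's 3′ end, between 83.4 and 107.4 kb.

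The common-partner gene Smad4 (ENSMUSG00000024515.13, chr18:73639009-73703780, minus strand) had 10 shared regions. Its main promoter had a signal of 13.8 in replicate 1 and 11.9 in replicate 2. An intronic region at 22.9 kb had the highest signal in replicate 1 of all 97, 17.6, and 14.9 in replicate 2. Its −log10 q was lower than that of the main promoter, at 113 against 332 in replicate 1 and 84.4 against 220 in replicate 2. A region downstream at 80.5 kb had 11.6 and 10.8 in replicates 1 and 2. Regions within 1 kb of starts of shorter transcripts lay at 29.4 kb (9.28 and 7.99) and 60.5 kb (10.1 and 9.71). The intronic region at 9.9 kb had 4.15 in replicate 1 and 7.07 in replicate 2. With the Tgfbr1 region at -15.1 kb it was 1 of only 2 among the 97 whose values lay more than 1.5-fold apart.

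The inhibitory gene Smad7 (ENSMUSG00000025880.11, chr18:75367529-75395935, plus strand), itself a known early target of TGF-β, had 11 shared regions. Its strongest promoter region had the lowest signal among those of the 8 genes, 6.32 in replicate 1 and 6.07 in replicate 2. That region also covered a start of the neighbouring gene Gm20544, so the promoters cannot be told apart here. The strongest regions lay upstream. The region at -13.9 kb had 16.3 in replicate 1 and 15.5 in replicate 2, and that at -7.9 kb had 14.4 and 13.3. The first was 2.58 times the promoter in replicate 1 and 2.56 times in replicate 2, the highest such ratio of the 8 genes. It led the gene by −log10 q as well. Both upstream regions held an AP-1 element near the summit. A region downstream at 42.8 kb had 8.17 and 8.91, and the strongest intronic region, at 20.1 kb, had 7.66 and 7.42. Near further starts, at 1.8 kb, a region had 2.36 and 2.17.

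Ski (ENSMUSG00000029050.15, chr4:155154075-155222592, minus strand), which encodes the co-repressor of SMAD-bound genes, had 19 shared regions, the most of the 8, with 11 in introns. A region with its replicate 1 summit 0.8 kb before the main start had 10.3 in replicate 1 and 9.56 in replicate 2. That region does not cover the start. A separate region that covers the main start, with its replicate 1 summit 0.6 kb after it, had 2.24 in replicate 1 and 2.07 in replicate 2. The latter was the lowest replicate 2 signal of the 97. The intronic region at 14.5 kb, which holds the printed match to the loose T-box pattern, had 11.8 in replicate 1 and 10.7 in replicate 2. It was above the promoter in both replicates by signal and below it by −log10 q (235 against 577 in replicate 1, 175 against 420 in replicate 2). A region downstream at 71.9 kb had 9.79 and 9.89, and an intronic one at 21.6 kb had 7.97 and 7.84. Near the start of a shorter transcript, at 35.3 kb, a region had 2.86 and 2.99. The weakest of the 97 regions in replicate 1 also lay in Ski, at 58.7 kb, with 2.05 in replicate 1 and 2.23 in replicate 2. The longest stretch without a shared region was 9.7 kb.

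At 5 of the 8 genes, Tgfbr2, Smad3, Smad4, Smad7 and Ski, the strongest region outside promoters exceeded the strongest promoter region in both replicates by signal. At Tgfb1, Tgfbr1 and Smad2 the promoter was higher in both. For Tgfb1 this holds for the region at 2.4 kb. The region at its main start, with 3.48 in replicate 1 and 3.28 in replicate 2, was below that at 18.99 kb (5.83 and 6.17). By −log10 q only Smad3 and Smad7 had the leading region outside a promoter. The region at the Tgfb1 main start, with 95.6 in replicate 1 and 72.1 in replicate 2, was again below that at 18.99 kb (102 and 107). The region that covers the Ski main start had 24.3 in replicate 1 and 15.2 in replicate 2. It was below the Ski region at 14.5 kb (235 and 175). The comparison of promoters with other regions thus depends on which deposited value is ranked for Tgfbr2, Smad4 and Ski. How often coding genes in general have a stronger region outside promoters was not computed. The 5 of 8 therefore cannot be read as a trait of these genes.

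Most of the 97 regions lay outside promoters. In introns of their own gene lay 48, at promoters of their own gene 16, downstream 15, upstream 11, at promoters of other genes 5 and in exons of their own gene 2. Classed by any annotated gene, 51.5% of the 97 were intronic (37.2% of all shared regions), 21.6% promoter (25.5%), 22.7% intergenic (28.5%) and 4.12% exonic (8.78%). The windows were drawn around gene bodies, and the part of this choice in the intronic share was not tested. Of 37 distinct annotated starts of the 8 genes, 27 had a shared region within 1 kb, against 57.1% of all starts of coding genes. Inside a shared region lay 22 of the 37, for which no share of all starts is given.

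The number of regions was set beside that of coding genes in the same 1 of 10 classes of gene length. Ski stood at percentile 97.7, Tgfbr2 at 96.6, Smad7 at 95.2 and Tgfb1 at 92.1. Smad3 followed at 77.6 and Smad4 at 67.9, whereas Tgfbr1, at 43.8, and Smad2, at 36.3, were below the middle of their length class. The median of the 8 percentiles was 84.8, against 51.0 over all coding genes. For Tgfb1 the rank was 55.9 with the gene body alone. That setting leaves out all regions in the 20 kb on either side, and the part of the neighbours in the rank was not tested. With 50 kb on either side Tgfbr1 stood at 72.9, above the middle, and Smad2 at 26.3.

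**Figure D2:**
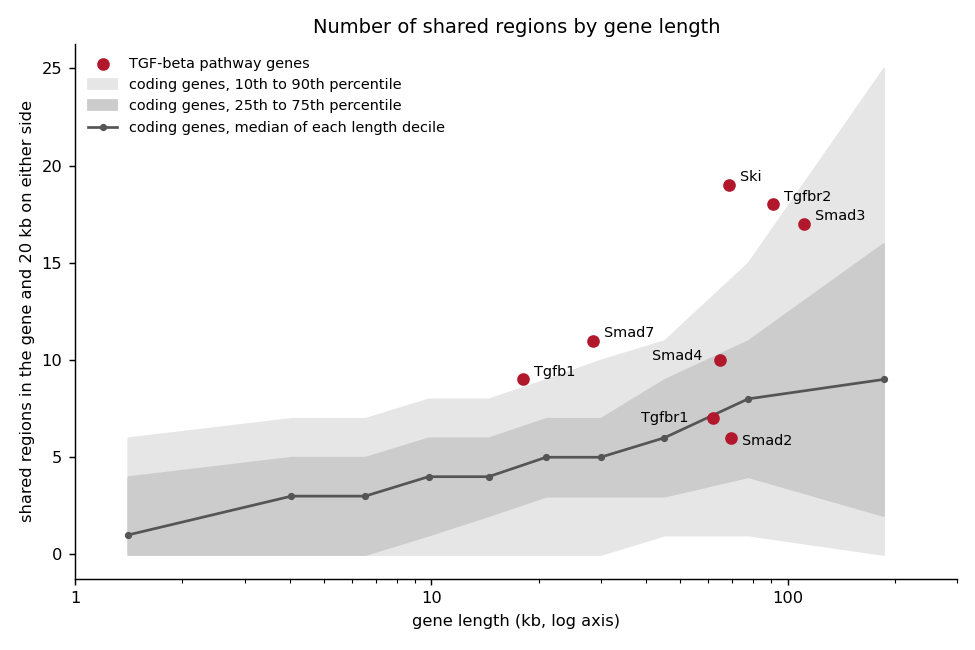
Number of shared regions per gene window, the gene body with 20 kb before and after it (vertical axis) against gene length in kb (horizontal log axis). Red points are the TGF-beta pathway genes; the grey line and bands are the median, quartiles and 10th to 90th percentiles of coding genes in each class of length, and Ski, Tgfbr2, Smad7 and Tgfb1 lie at or above the upper band's edge while Tgfbr1 and Smad2 lie at or below the median line.

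The replicates resembled each other closely at these genes. Of the 110 member regions of replicate 1, 88.2% overlapped a region of replicate 2, against 86.6% of all regions. Of the 101 of replicate 2, 97.0% overlapped a region of replicate 1, against 93% of all. Replicate 1 alone had 13 regions, 4 of them at Smad3, and replicate 2 alone had 3, of which 2 were at Tgfbr2 and 1 at Smad7. The strongest region found in only 1 replicate was an exonic one at Smad3, 102.6 kb from the start, with a signal of 5.95. A region near a start of a shorter Smad4 transcript, at 53.4 kb, was found in replicate 1 only (4.36). The other 14 had signals from 1.37 to 3.32.

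Over the 97 shared regions the median signal was 5.83 in replicate 1 and 5.68 in replicate 2, against 6.92 and 6.72 over all shared regions. By rank the members had a median percentile of 40.9 on signal and 55.0 on −log10 q, taken as the mean of both replicates. They were thus below the middle of all regions by signal and above it by −log10 q. The member regions were wider, with a median of 843 bp against 736 bp over all. The median absolute log2 ratio between the replicates was 0.09 at the members and 0.12 over all. More than 1.5-fold apart were 2 of 97, against 2.18% of all shared regions. Summits lay within 100 bp of each other at 86 of the 97 (88.7%), against 89.5% of all shared regions. Across the 97 regions, which share the same pair of libraries and are not independent, Pearson's r of log2 signal was 0.96 and Spearman's rho 0.97, as over all shared regions (0.96 each).

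**Figure D3:**
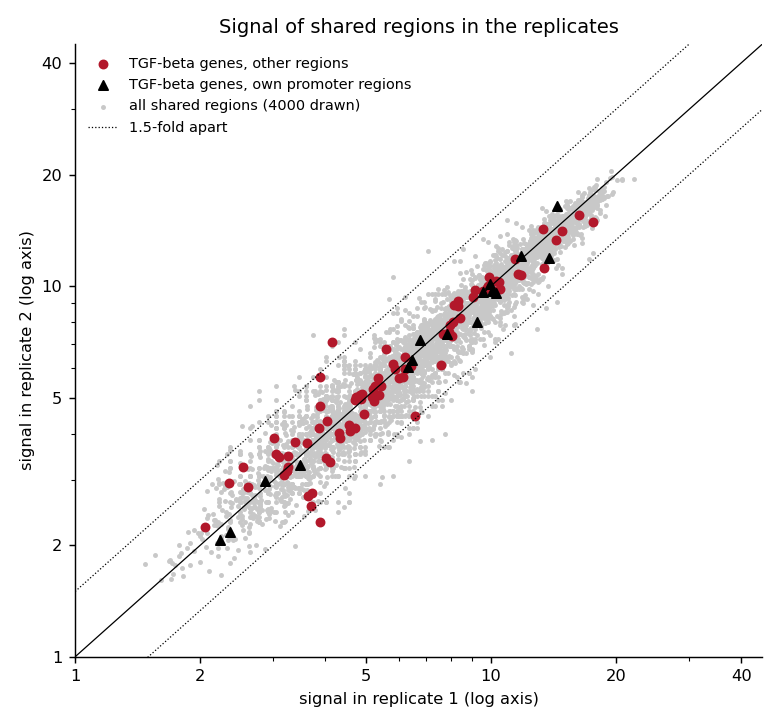
Signal of each shared region in replicate 1 (horizontal log axis) and replicate 2 (vertical log axis). Red points and black triangles are the 97 regions at the TGF-beta pathway genes, grey points are 4000 of all shared regions drawn at random, the solid line marks equal values and the dotted lines values 1.5-fold apart; 2 red points lie beyond the dotted lines.

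Short motifs were counted on both strands within 100 bp of the replicate 1 summit. CAGAC, the short element bound by the DNA-binding domain of SMAD3 and SMAD4, was in 43 of 97 regions (44.3%), against 42% of all shared regions. Within 50 bp of the summit the share was 32.0% at the members, against 24.3% of all, and around the replicate 2 summit 46.4%, against 41.8%. Outside promoters it was present in 39 of 76 member regions (51.3%), against 43.4% of all. At promoters the difference went the other way, with CAGAC in 4 of 21 member regions (19.05%), against 37.9% of all promoter regions. The palindrome GTCTAGAC, known as a Smad binding element, was in 0 of 97, against 0.173% of all shared regions. The GC-rich Smad element GGCGCC was in 7 (7.22%), against 5.35%. AP-1 (TGANTCA), whose factors partner with Smads, was in 25 (25.8%), against 26%. CAGAC can overlap AP-1 by its first letters, as in the Tgfbr1 sequence printed above, and GGCGCC can overlap the GC box.

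Among motifs of T cell factors, ETS (CAGGAAG) was in 19 of 97 (19.6%), against 15.3%, but within 50 bp of the summit in 9.28%, against 9.36%. RUNX (TGTGGTT) was in 6 (6.19%), against 9.45%. AGGTGNNA, a loose form of the T-box element bound by T-bet in which N is any letter, was in 11 (11.3%), against 14.8%. STAT (TTCNNNGAA) was in 10 (10.3%), against 7.99%. The GC box GGGCGG was in 18 (18.6%), against 14%, and outside promoters in 9 of 76 (11.8%), against 5.23%. With 97 regions each region moves a share by about 1 percentage point, and none of these differences was tested.

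**Figure D4:**
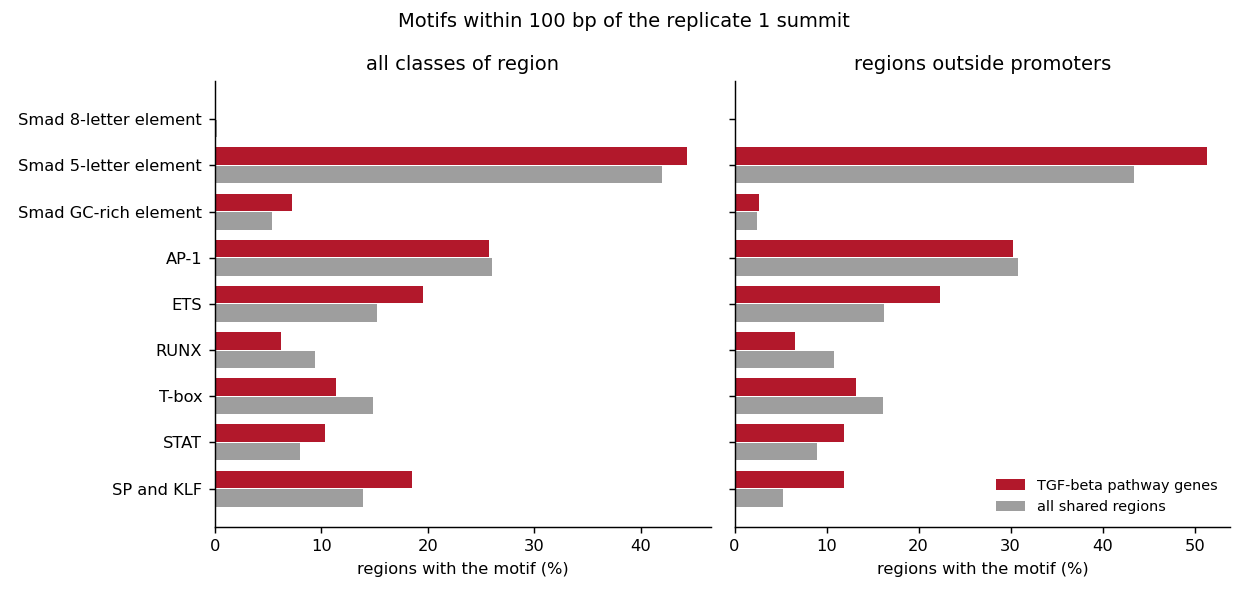
Percent of regions with each motif within 100 bp of the replicate 1 summit (horizontal axis) for 9 motifs (vertical axis), in all classes of region (left) and outside promoters (right). Red bars are the regions at the TGF-beta pathway genes and grey bars all shared regions; AP-1 has nearly the same share in both.

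The rest of the pathway was described from a list of 87 names in 8 roles. Of these, 3 are older symbols of genes that the list also holds under the current one, so 84 distinct protein-coding genes were counted. Of these genes, 78 (92.9%) had an open promoter, against 65.9% of all coding genes. The median signal at the open promoters of the list was 9.99 in replicate 1 and 9.86 in replicate 2, against 11.3 and 11.1 over all open promoters of coding genes.

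Among other ligands 6 of 7 were open. Inha, an inhibin subunit gene, had 12.9 in replicate 1 and 10.7 in replicate 2, and Tgfb2 was lowest with 7.32 and 6.66. Mstn, the gene of the muscle ligand myostatin, had no shared region at its promoter. Among genes that store or activate latent TGF-β 11 of 12 were open. Itgb8, whose integrin releases active TGF-β, had 11.9 in both replicates, and Furin, the protease that cuts the propeptide, had 5.24 and 5.48. Itgb6, of the epithelial integrin with a like role, was closed at the promoter although 7 shared regions lay in its window.

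Among other receptors 11 of 12 were open, led by Acvr2b, an activin receptor gene, with 17.4 and 16.7 in replicates 1 and 2, and Bambi, a decoy receptor gene, with 15.4 and 14.5. Bmpr1b was closed and Acvrl1, known from endothelium, was lowest with 4.65 and 4.23. All 4 other Smad genes were open, from Smad1 (11.5 and 10.4) down to Smad9 (6.28 and 6.30). Open promoters were found at 13 of 13 adaptors and regulators of Smad activity, with Strap (16.0 and 15.8) and the ubiquitin ligase gene Smurf2 (15.1 and 15.2) highest, and at 7 of 7 genes of the non-Smad branch, with Tab1 (16.1 and 15.3) highest.

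Among nuclear partners and co-repressors 12 of 13 were open. Hdac1 had 15.0 and 14.4 in replicates 1 and 2, Tgif1, a co-repressor gene, had 4.59 and 4.76, and Foxh1, which recruits Smads in the embryo, was closed. Among known targets 14 of 16 were open. Gzmb, the granzyme B gene that TGF-β is known to repress, had 12.4 and 12.5, whereas Ccn2 (3.37 and 2.44) and Tgfbi (3.88 and 2.76) were lowest. Closed were Itgae, which encodes the αE integrin chain of tissue-resident T cells, and Il9. Itgae had 13 shared regions in its window even so. At the Il9 promoter a region was called in replicate 1 but not in replicate 2. Foxp3, the gene of the regulatory T cell factor, had an open promoter with 11.5 in replicate 1 and 10.04 in replicate 2.

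**Figure D5:**
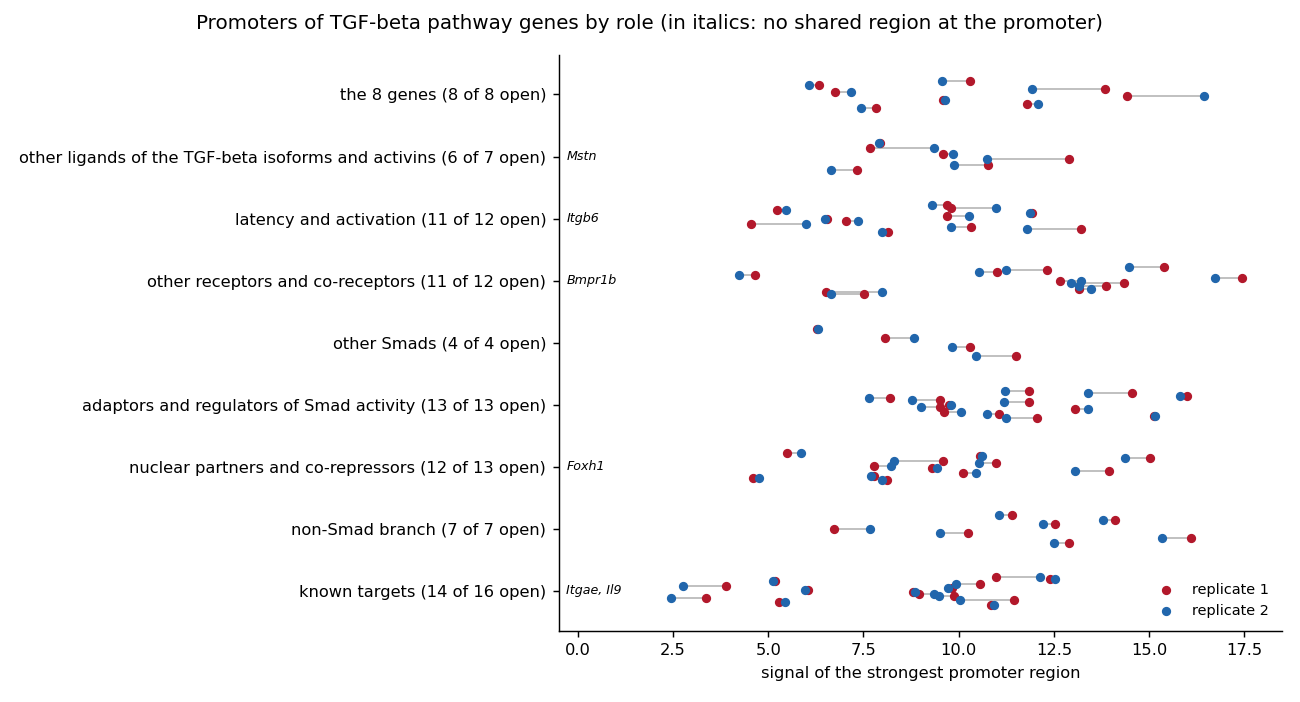
Signal of the strongest promoter region (horizontal axis) of each gene with an open promoter, by role (rows); red points are replicate 1, blue points replicate 2, joined by a line. Genes in italics had no shared region within 1 kb of a start; the 8 genes in the top row span 6.07 to 16.4 and the known targets in the bottom row reach lowest.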

How the data were processed

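ATAC-seq open regions were taken as deposited, 1 list per replicate on mm10, per the labels. Which aligner and caller made them is not given in the sources used here. Each deposited list gives, per region, the authors' signal value, −log10 p and −log10 q, a display score and a summit. The smallest −log10 q was 1.01 in replicate 1 and 1.00 in replicate 2. The deposited lists hold no read counts, so the depth is unknown and no counting interval is given. A region with low signal can be missed at lower depth.

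Lists were joined and classed against GENCODE M21 with Python 3.11.15, pandas 2.3.3 and NumPy 2.4.6, and sequence was read from GRCm38.p6 with pysam 0.24.0. A joined region took, from each replicate, the strongest signal. The classes were, in this order, promoter (within 1 kb of an annotated start), exonic, intronic and intergenic. The main start is the first start of the principal coding transcripts. Gene length percentiles compare coding genes within 10 classes of length, ties counted by the middle rank. The overlap, counting and motif steps were tested on simulated data. No p-value was computed, because there is 1 group. The genes, the list of the wider pathway, the motifs and the markers were chosen with earlier results of these data known. The rule for names covered all 8 genes, their promoter regions and the 3 strongest regions of each outside promoters, and it allowed regions found in 1 replicate, neighbours in a window, and wider-list genes that were closed or among the 2 highest or 2 lowest of their role. Foxp3, and the regions of Tgfbr1 at 47.2 and -15.1 kb, Tgfbr2 at 61.0 and 84.1 kb, Smad7 at 20.1 kb and Ski at 58.7 kb, fall outside this rule and were chosen after their values were seen. A gene of the known targets is not reported here and was left out of the wider list and its counts.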

Additional observations from a re-analysis of the deposited data

How the results depend on the processing

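The count of shared regions, 97, became 96 with a reciprocal overlap of 50%, 91 with −log10 q of 5 or more, 65 with the gene body only and 143 with 50 kb on either side, and the lists of single replicates held 101 and 110. All 8 promoters were open under every alternative run (a promoter window of 500 bp or 2.5 kb, coding starts only, −log10 q of 5 or more, either replicate left out), and the wider list ranged from 76 to 80 open of 84. Across these settings 43 counts of single genes stayed within 1.5 times and 5 did not, 3 with the gene body only and 2 with 50 kb. The median signal became 5.83 in replicate 2 with the reciprocal overlap and 6.03 in replicate 1 with the gene body only. Ranked by −log10 q in place of signal, the median percentile was 56.9 in replicate 1 and 55.8 in replicate 2, against 40.2 and 40.3 by signal, and the cause was not tested. The median percentile of region number was 87.3 with −log10 q of 5 or more, 75.3 with the gene body only and 82.0 with 50 kb, and 83.7 to 85.2 with 1 replicate left out; Tgfbr1 moved to 72.9 with 50 kb and Tgfb1 to 55.9 with the gene body only. Within 50 bp of the summit the shares at the members and over all regions were 32.0% and 24.3% for CAGAC, 4.12% and 3.23% for GGCGCC, 19.6% and 18.8% for AP-1, 9.28% and 9.36% for ETS, 3.09% and 5.74% for RUNX, 5.15% and 8.45% for T-box, 5.15% and 3.97% for STAT and 11.3% and 8.65% for the GC box. At the replicate 2 summit they were 46.4% and 41.8% for CAGAC, 9.28% and 5.25% for GGCGCC, 25.8% and 25.9% for AP-1, 20.6% and 15.2% for ETS, 6.19% and 9.36% for RUNX, 11.3% and 14.8% for T-box, 10.3% and 8.11% for STAT and 19.6% and 13.9% for the GC box. The palindrome was in 0 member regions in both. No paired analysis was possible because there is 1 group and no test.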
